A study of Mus musculus with 6 samples.

Results

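The 31 genes described here encode proteins of early neurons, and they were taken by symbol from a list. They fall by role into 14 pan-neuronal genes of the cytoskeleton, axon and RNA binding, 6 motor neuron genes, 6 interneuron and general subtype genes, 1 sensory neuron gene and 4 autonomic neuron genes. All 31 were present among 23366 genes in the files, and all passed the filter on low counts that left 15075 genes for testing. RNA-seq of polyadenylated RNA was done on 6 whole mouse embryos at stage E10.5, of a mixed C57BL/6, CD1 and 129 strain. The 3 knockout embryos carried H3f3a fl/- and H3f3b fl/-, which pairs a floxed with a null copy at each of the genes for histone H3.3, the variant of histone H3 deposited outside DNA replication. The 3 control embryos carried H3f3a fl/+ and H3f3b fl/+. Both groups carried the Sox2-Cre transgene (Sox2-CreTg/0), a recombinase active in the epiblast, and both lacked Trp53 (Trp53-/-), so the controls also carried the recombinase and a floxed copy of each gene and were not wild type.

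Neurons that leave the cell cycle in the neural tube and the cranial and spinal ganglia switch on a shared set of genes for microtubules, intermediate filaments, growth cones and neuronal RNA-binding proteins. On top of that set, each class of neuron expresses its own transcription factors and transmitter genes, with LIM-homeodomain factors marking motor neurons and several interneuron classes. Motor neurons and the neurons of the cranial and dorsal root ganglia are among the first to appear in the mouse. In whole embryos, fewer neurons and less RNA per neuron cannot be told apart.

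Gene counts summed to 24952853 to 27871038 in knockout libraries and 27775576 to 30461689 in control libraries. H3f3a averaged 67.7 ± 2.91 CPM (counts scaled to a common library size) in knockouts and 349 ± 15.4 CPM in controls, and H3f3b averaged 455 ± 56.8 CPM in knockouts and 691 ± 31.5 CPM in controls (SD, n = 3 each). Trp53 transcripts, in embryos that all lack the gene's function by label, averaged 4.52 ± 1.27 CPM in knockouts and 2.75 ± 0.490 CPM in controls. The share of alignments outside genes was 18.3%, 10.6% and 18.02% in knockouts 1, 2 and 3, against 9.79%, 10.7% and 13.1% in controls 1, 2 and 3. Summed markers of heart, red blood cells, somites and neural progenitors were present in every library, which fits the whole-embryo label, while 9 of 9 tested macrophage markers were lower in knockouts, with summed levels of 1.65 to 2.44 CPM in knockouts and 56.1 to 66.7 CPM in controls. Litter and preparation batch are absent from the labels, and the p-values therefore reflect spread among these 6 samples alone.

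Only 1 of the 31 genes fell at an adjusted p under 0.05, and most of the others lay slightly below the controls. That gene was Stmn3, a stathmin that binds tubulin dimers in neurons, at 1.55-fold lower in knockouts. None of the 31 was higher by the test. Over all genes tested by edgeR's quasi-likelihood test, 1.51% passed in either direction and 0.955% passed as lower. At an unadjusted p under 0.05, 10 of the 31 were lower and none was higher, where 8.53% of all tested genes were lower. In 5 of the 31 every knockout embryo lay below every control embryo, namely Stmn3, Tubb3, Elavl2, Elavl4 and Isl1, and the same held for 12.3% of all tested genes. Log2 fold changes were below 0 for 24 of the 31, with a median of -0.24. When single embryos were left out, 19 (without control 3) to 29 (without control 2) were below 0. The median was -0.16 and -0.37 in those fits, the ends of its range. Of all tested genes 50.3% were below 0, with a median of -0.0010.

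**Figure D1:**
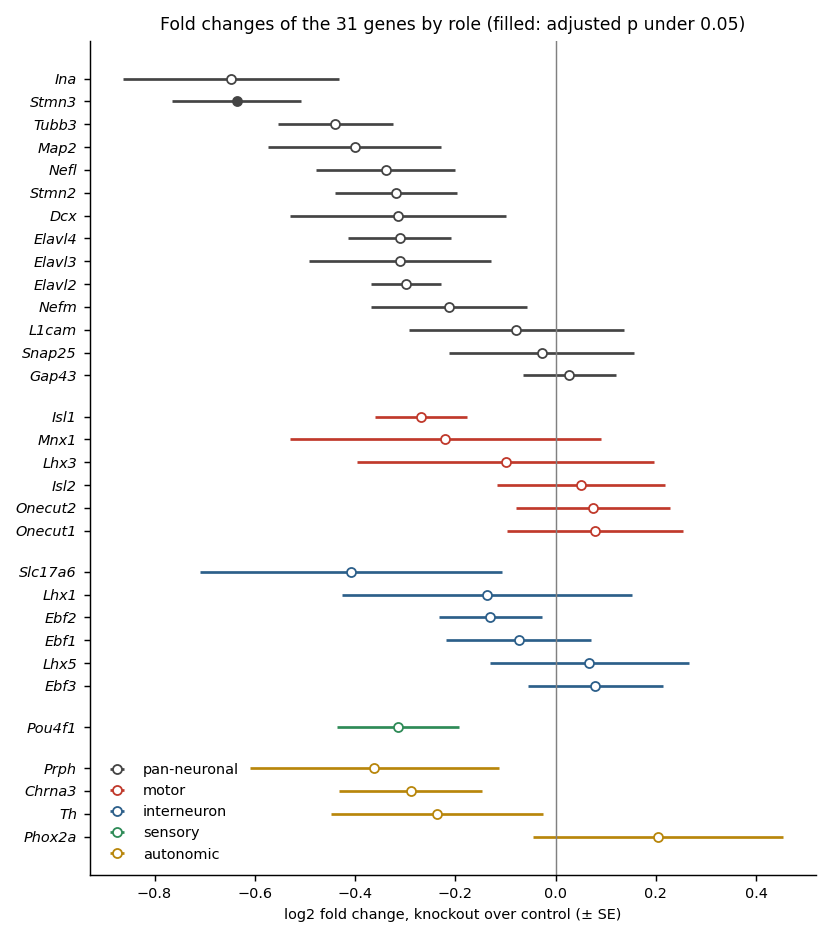
Log2 fold change of knockout over control embryos (horizontal axis, with standard errors) for the 31 genes, grouped and coloured by role. The filled point marks Stmn3, with an adjusted p under 0.05, and 13 of the 14 pan-neuronal genes lie below 0.

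The most negative fold changes were among the pan-neuronal genes. Stmn3 had 594, 500 and 543 counts in knockouts 1, 2 and 3 and 1030, 794 and 874 counts in controls 1, 2 and 3, which is 22.9, 18.5 and 18.6 CPM in knockouts against 35.3, 27.0 and 30.9 CPM in controls. The lowest control stood above the highest knockout. The means were 20.0 ± 2.51 CPM in knockouts and 31.1 ± 4.16 CPM in controls (SD, n = 3 each), or -0.64 ± 0.13 (SE) on the log2 scale, and edgeR gave an adjusted p of 0.0488. That lay just inside the threshold. Leaving out control 1 moved the edgeR adjusted p to 0.257, leaving out control 2 to 0.0804, control 3 to 0.115 and knockout 3 to 0.219. It was 0.0361 without knockout 1 and 0.0203 without knockout 2, where 3.28% of all genes tested in the latter fit were called lower. Over these fits the log2 fold change of Stmn3 was -0.74 to -0.53. Stmn3 was called in 9 of the 18 alternative fits.

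Tubb3, the beta tubulin used by neurons from their birth, was at 264, 226 and 221 CPM in knockouts and 361, 273 and 329 CPM in controls. No knockout reached the level of the lowest control, control 2. The fold change was -0.44 ± 0.11 on the log2 scale (SE) and missed the threshold in edgeR at an adjusted p of 0.102. Stmn2, a stathmin of growing axons, stood at 112, 93.0 and 95.4 CPM in knockouts and 141, 103 and 131 CPM in controls. Here knockout 1 exceeded control 2, so the groups overlapped (-0.32 ± 0.12 in log2, edgeR adjusted p = 0.203).

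**Figure D2:**
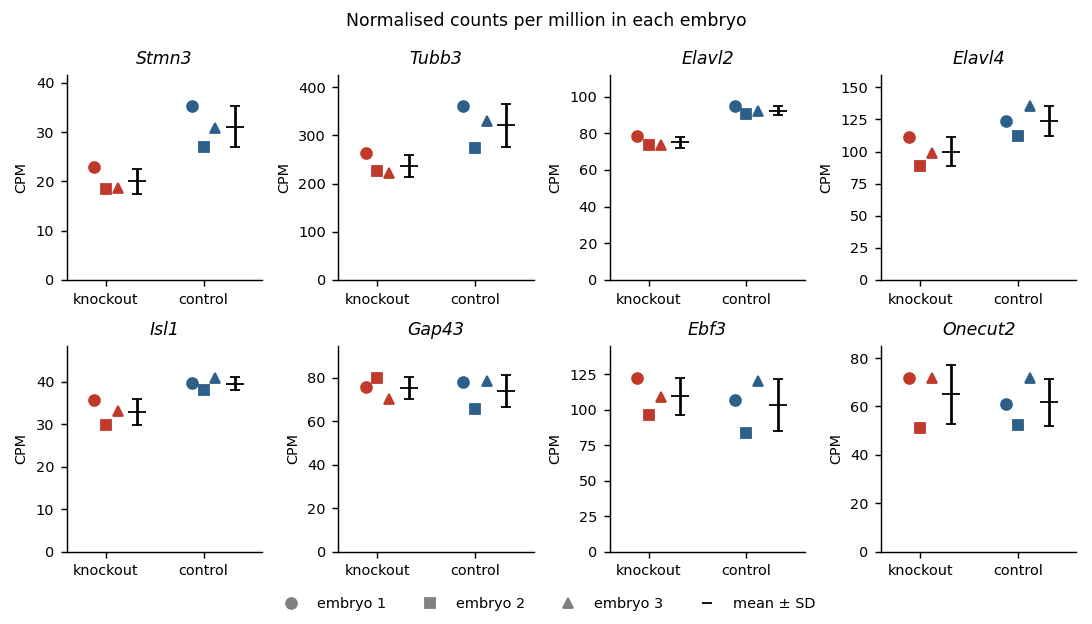
CPM in each embryo (vertical axes start at 0) for 8 of the genes, with knockouts in red left of controls in blue, marker shape giving the embryo number within its group, and black bars the mean ± SD of 3 embryos. Stmn3, Tubb3, Elavl2, Elavl4 and Isl1 have every knockout below every control, while the groups overlap for Gap43, Ebf3 and Onecut2.

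Promoters of the members whose groups did not overlap are shown for the 3 with a single annotated start, from RefSeq (GRCm38.p6), each from 250 bases before to 50 bases after the start and read 5′ to 3′ on the gene's strand. They are shown because these genes had all knockouts below all controls. Capitals mark E-boxes, which bHLH factors of neurogenesis are known to bind, in either of the forms searched on both strands. The first form has the letters CAGATG. The second form reads the same on both strands and has the letters CAGCTG. Stmn3 lies at chr2:181314451-181314750 on the minus strand, Tubb3 at chr8:123411303-123411602 on the plus strand and Isl1 at chr13:116309639-116309938 on the minus strand.
Stmn3: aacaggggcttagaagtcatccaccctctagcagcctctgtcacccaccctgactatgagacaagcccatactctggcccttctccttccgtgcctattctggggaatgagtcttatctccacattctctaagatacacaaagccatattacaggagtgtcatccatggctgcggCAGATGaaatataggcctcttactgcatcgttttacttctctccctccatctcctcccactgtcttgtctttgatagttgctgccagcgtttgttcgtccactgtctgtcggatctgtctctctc
Tubb3: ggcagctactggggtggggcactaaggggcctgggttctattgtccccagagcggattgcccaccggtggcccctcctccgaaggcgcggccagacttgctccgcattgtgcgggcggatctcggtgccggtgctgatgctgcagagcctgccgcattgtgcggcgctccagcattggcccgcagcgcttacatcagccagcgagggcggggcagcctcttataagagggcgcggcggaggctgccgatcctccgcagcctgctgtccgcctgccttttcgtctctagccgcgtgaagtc
Isl1: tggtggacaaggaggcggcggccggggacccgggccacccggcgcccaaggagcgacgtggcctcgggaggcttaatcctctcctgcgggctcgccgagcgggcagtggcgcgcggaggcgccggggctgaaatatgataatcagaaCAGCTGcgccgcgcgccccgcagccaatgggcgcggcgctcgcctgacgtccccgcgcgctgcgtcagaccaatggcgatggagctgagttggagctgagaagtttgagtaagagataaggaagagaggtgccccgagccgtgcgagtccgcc

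The Stmn3 window held 1 match to the first form only, at a GC content of 49.7%, the Isl1 window 1 match to the second form only, at 69.0%, and the Tubb3 window no match to either, at 67.3%. Promoter windows were found for 23 of the 31 genes, counting a gene with several starts once. A gene counted as holding a form if any of its windows did. Elavl2 had 6 windows and Elavl4 had 4, and windows per gene were not matched between the members and all genes. The first form was present for 5 of the 23 (21.7%), and for 19.2% of the 27025 genes in the RefSeq table. The second form was present for 7 of 23 (30.4%), against 18.3% of all. The GC box GGGCGG, also searched on both strands, which can share no more than 1 end base with either E-box form, was present for 17 of 23 (73.9%), against 38.2% of all. These counts describe letters in the windows and not binding.

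Among the ELAV family, whose members bind AU-rich RNA and stabilise neuronal transcripts, the 3 genes had almost the same fold change with very different scatter. Elavl2 was at 78.6, 73.4 and 73.6 CPM in knockouts and 95.0, 90.3 and 92.0 CPM in controls. Both groups were tight and fully apart, with a difference of -0.30 ± 0.07 in log2 (SE) that edgeR put at an adjusted p of 0.0800. Leaving out single embryos gave edgeR adjusted p-values of 0.0382 (without knockout 2) to 0.354 (without control 1), and the fit without knockout 2 called 3.28% of all its tested genes as lower. Elavl4, at 111, 88.8 and 99.1 CPM in knockouts and 124, 112 and 136 CPM in controls, was also apart, by a gap under 1 CPM (-0.31 ± 0.10 in log2, edgeR adjusted p = 0.160). Elavl3 ranged from 66.9 to 90.8 CPM in knockouts and from 71.0 to 118 CPM in controls and overlapped (-0.31 ± 0.18 in log2, edgeR adjusted p = 0.373).

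The intermediate filament genes varied widely between control embryos. Ina, which encodes alpha-internexin, an early neuronal filament protein, was at 52.7, 42.6 and 47.2 CPM in knockouts and 88.4, 47.7 and 87.2 CPM in controls. Controls 1 and 3 lay far above all knockouts, while control 2 lay among them. In log2 the difference was -0.65 ± 0.22 (SE; edgeR adjusted p = 0.166), and without control 2 it was -0.89 (edgeR adjusted p = 0.0206). The fit without control 2 called 53 of all its 15299 tested genes as lower. Leaving out any other single embryo gave -0.72 to -0.51 for Ina, with edgeR adjusted p-values of 0.246 to 0.450. Ina shares 456 exonic bases with Nt5c2 on the opposite strand in GENCODE M21. Nefl, the light neurofilament subunit, averaged 103 ± 11.3 CPM in knockouts and 131 ± 24.9 CPM in controls (SD, n = 3 each), at -0.34 ± 0.14 on the log2 scale. Nefm, the medium subunit, averaged 216 ± 13.1 CPM in knockouts and 250 ± 58.9 CPM in controls, at -0.21 ± 0.16. Both overlapped between groups, with edgeR adjusted p-values of 0.229 for Nefl and 0.473 for Nefm. Nefl and Nefm share 1108 exonic bases on opposite strands in GENCODE M21, so their counts are uncertain, since whether counting used strand is not stated.

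The remaining pan-neuronal genes all overlapped between the groups, with lower knockout means for Map2 and Dcx and means near the controls for the others. Map2, a microtubule protein of dendrites, was at 199, 134 and 161 CPM in knockouts and 234, 168 and 250 CPM in controls. Dcx, the doublecortin of migrating neurons, was at 257, 157 and 190 CPM in knockouts and 275, 182 and 294 CPM in controls. For both genes knockout 1 lay above control 2, as did knockout 3 for Dcx, and the log2 fold changes were -0.40 ± 0.17 for Map2 and -0.31 ± 0.22 for Dcx, neither called. Gap43, a growth cone protein, was at 75.9, 80.1 and 70.0 CPM in knockouts and 77.9, 65.4 and 78.3 CPM in controls. The groups were interleaved and the log2 fold change was 0.03 ± 0.09 (SE). L1cam, an adhesion molecule of axons, averaged 25.8 ± 6.28 CPM in knockouts and 27.3 ± 6.52 CPM in controls, at -0.08 ± 0.21. Snap25, a protein that acts in the fusion of synaptic vesicles, averaged 12.9 ± 1.74 CPM in knockouts and 13.2 ± 3.20 CPM in controls, at -0.03 ± 0.18.

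Over the 14 pan-neuronal genes the median log2 fold change was -0.31, with 13 below 0. At an unadjusted p under 0.05, 8 were lower, and 4 were lower with the groups apart. Of all tested genes, 50.3% were below 0, 8.53% were lower at that p and 12.3% were lower with the groups apart. DESeq2 called 4 of the 14, all as lower (Elavl2, Ina, Stmn3 and Tubb3), where it called 2.14% of all tested genes as lower, and limma-voom called none, where it called 0.862% as lower. The median was -0.46 without control 2 and -0.25 without control 1, the ends of the range when any embryo was left out.

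Motor neuron genes showed no shared direction. Isl1, a LIM-homeodomain factor of motor and sensory neurons that the heart and foregut also use, was at 35.7, 29.7 and 33.2 CPM in knockouts and 39.8, 38.0 and 41.0 CPM in controls. Every knockout was below every control, with a difference of -0.27 ± 0.09 in log2 (SE), and edgeR did not call it (adjusted p = 0.167). Markers of the second heart field and heart muscle, 12 of 12 tested, summed to 463 to 477 CPM in knockouts and 378 to 409 CPM in controls, with 8 log2 fold changes above 0 and 4 below. Among them Myh7 averaged 129 CPM in knockouts and 91.6 CPM in controls, and Nppa 39.7 CPM in knockouts and 13.5 CPM in controls, the only gene of the 12 that edgeR called (adjusted p = 0.0138). Their part in the level of Isl1 was not tested. Isl2, its relative with a later start in motor and sensory neurons, stood at 8.67, 6.06 and 9.09 CPM in knockouts and 8.09, 7.35 and 7.56 CPM in controls. Knockout 2 was below all controls and the other two knockouts above them, at 0.05 ± 0.17.

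Lhx3, a partner of Isl1 in specifying motor neurons that V2 interneurons also express, had 71, 34 and 71 counts in knockouts and 61, 59 and 79 counts in controls. Mnx1, a motor neuron factor, had 40, 21 and 44 counts in knockouts and 46, 34 and 49 counts in controls. In both genes knockout 2 was the lowest of all embryos, and the log2 fold changes were -0.10 ± 0.30 for Lhx3 and -0.22 ± 0.31 for Mnx1. Onecut1 and Onecut2, homeodomain factors of motor neurons and other early neurons, were at 0.08 ± 0.18 and 0.07 ± 0.15. Onecut2 ranged from 51.0 to 71.9 CPM in knockouts and from 52.3 to 71.8 CPM in controls, almost the same span. For Onecut1, GENCODE M21 places a noncoding gene on the same strand over 52.8% of its exonic bases, so its count is uncertain. edgeR, DESeq2 and limma-voom each called 0 of the 6, and 1, Isl1, had an unadjusted p under 0.05. Of all tested genes, they called 0.955%, 2.14% and 0.862% as lower, and 8.53% were lower at that p in edgeR. At these shares, 0 calls among 6 genes do not set the list apart. The median log2 fold change of the 6 was -0.02. It was -0.15 without knockout 1, 0.15 without knockout 2 and -0.32 with the share of alignments outside genes as a covariate.

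Interneuron and general subtype genes also overlapped between the groups. Ebf1, Ebf2 and Ebf3, helix-loop-helix factors of neurons that have left the cell cycle, which some mesenchyme also expresses, had log2 fold changes of -0.07 ± 0.14, -0.13 ± 0.10 and 0.08 ± 0.13 (SE). Ebf3, the most abundant of them per exonic length, was at 123, 96.1 and 109 CPM in knockouts and 107, 83.9 and 120 CPM in controls. The highest embryo was a knockout and the lowest a control. Lhx1, a LIM-homeodomain factor of interneurons that the developing kidney also uses, stood at 14.9, 7.94 and 9.75 CPM in knockouts and 13.8, 7.38 and 14.6 CPM in controls. Its relative Lhx5 stood at 14.8, 11.9 and 12.6 CPM in knockouts and 14.8, 8.54 and 14.1 CPM in controls. Both genes had their lowest value in control 2, with log2 fold changes of -0.14 ± 0.29 for Lhx1 and 0.07 ± 0.20 for Lhx5. Slc17a6, the vesicular glutamate transporter of excitatory neurons, was at 12.6, 7.79 and 7.45 CPM in knockouts and 13.4, 7.24 and 16.3 CPM in controls. Controls 1 and 3 exceeded all knockouts, control 2 was below all of them, and the difference was -0.41 ± 0.30 in log2 (edgeR adjusted p = 0.474). The median of the 6 was -0.10, or 0.02 without control 3. No call was made among them by edgeR, DESeq2 or limma-voom, and none had an unadjusted p under 0.05. Of all tested genes, these methods called 0.955%, 2.14% and 0.862% as lower, and 8.53% were lower at that p in edgeR. At these shares, 0 calls among 6 genes do not set the list apart.

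Pou4f1, the POU-domain factor of sensory neurons of the ganglia, was the single sensory gene. It was at 18.1, 15.03 and 16.5 CPM in knockouts and 21.0, 17.9 and 22.9 CPM in controls. The groups overlapped only in knockout 1, which lay just above control 2, and edgeR put the difference at -0.31 ± 0.12 in log2 (SE; adjusted p = 0.209).

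The autonomic genes were expressed at low levels. Chrna3, the nicotinic receptor subunit of autonomic ganglia, was at 14.1, 10.3 and 11.7 CPM in knockouts and 15.1, 13.0 and 16.1 CPM in controls. Only knockout 1 reached into the range of the controls, and edgeR put the difference at -0.29 ± 0.14 in log2 (SE; adjusted p = 0.299). Prph, the intermediate filament peripherin of peripheral neurons, averaged 3.33 ± 0.454 CPM in knockouts and 4.27 ± 1.32 CPM in controls (SD, n = 3 each), at -0.36 ± 0.25. Th, tyrosine hydroxylase, the rate-limiting enzyme of catecholamine synthesis, had 61, 107 and 93 counts in knockouts and 104, 105 and 115 counts in controls. Phox2a, a homeodomain factor of noradrenergic neurons, had 55, 86 and 58 counts in knockouts and 75, 55 and 53 counts in controls. Knockout 2 was the highest knockout for both Th and Phox2a, unlike in most of the other genes, and their log2 fold changes were -0.24 ± 0.21 and 0.20 ± 0.25. The median of the 4 was -0.26. They held no call by edgeR, DESeq2 or limma-voom, and none had an unadjusted p under 0.05. Of all tested genes, these methods called 0.955%, 2.14% and 0.862% as lower, and 8.53% were lower at that p in edgeR. At these shares, 0 calls among 4 genes do not set the list apart.

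Embryos of the same group also differed from each other across the 31 genes. Control 2 was the lowest control for 30 of the 31 genes, the exception being Th, and it lay below the control mean for all 31, where 48.2% of all tested genes did. Knockout 2 was the lowest knockout for 22 of the 31. Knockout 1 lay below the control mean for 15 of the 31, knockout 2 for 28 and knockout 3 for 22. Against the control mean, the median over the pan-neuronal genes was -0.13, -0.48 and -0.35 (log2) in knockouts 1, 2 and 3 and 0.16, -0.34 and 0.18 in controls 1, 2 and 3. Control 2 thus lay between knockouts 1 and 3. In the motor genes the same medians were 0.18, -0.36 and 0.08 in knockouts and 0.0014, -0.17 and 0.20 in controls.

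**Figure D3:**
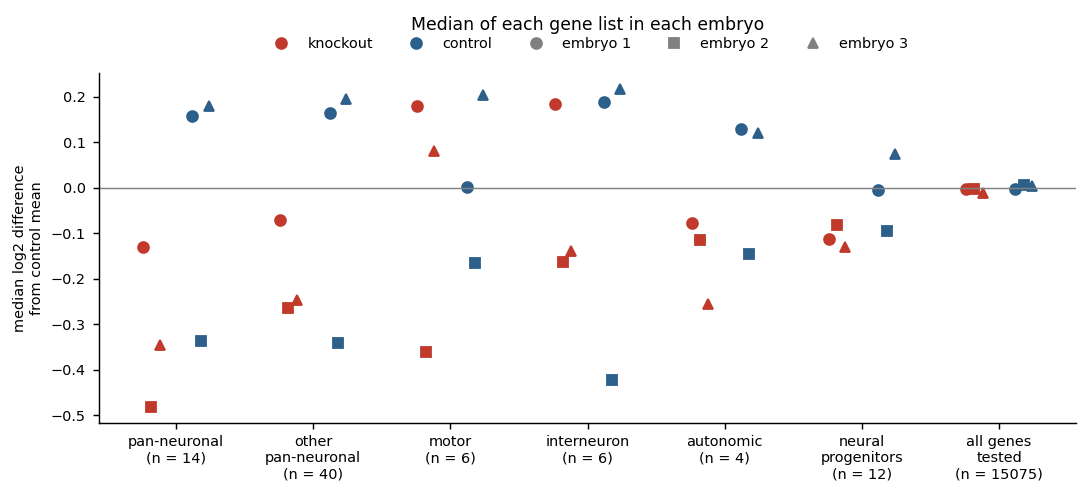
Median over each gene list of the log2 difference from the control mean (vertical axis, log2 of CPM plus 0.5) in each embryo. Knockouts are in red left of controls in blue, and marker shape gives the embryo number, which was not taken to pair embryos. Control 2 lies low in the neuronal lists, at -0.34 for the pan-neuronal genes, while the medians of all tested genes stay near 0.

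Other marker lists moved with the embryos as well. The list of the low-oxygen response, 12 of 12 tested, had medians of 0.25, 1.72 and 0.70 in knockouts 1, 2 and 3, and its summed level was 2413 to 6616 CPM in knockouts and 2050 to 2560 CPM in controls. The knockout embryo with the highest median of that list, knockout 2, had the lowest median of the pan-neuronal genes, and knockout 1 the reverse. Neural progenitor markers, 12 of 12 tested, summed to 1284 to 1379 CPM in knockouts and 1394 to 1581 CPM in controls, and these sums did not overlap. Nes was the largest part of the sums, averaging 545 CPM in knockouts and 664 CPM in controls. It overlapped between the groups, at 609 CPM in knockout 1 and 598 CPM in control 2. The medians of the 12 against the control mean also overlapped. They were -0.11, -0.083 and -0.13 (log2) in knockouts 1, 2 and 3 and -0.0051, -0.094 and 0.074 in controls 1, 2 and 3. None of the 12 was called by edgeR or limma-voom, and the median log2 fold change was -0.10. At an unadjusted p under 0.05, 3 of the 12 were lower, against 8.53% of all tested genes, and DESeq2 called 1 as lower, against 2.14% of all. Neural crest and early glial markers, 8 of 8 tested, summed to 257 to 267 CPM in knockouts and 242 to 254 CPM in controls. The part of these lists in the levels of the 31 genes was not tested. With the share of alignments outside genes as a covariate, edgeR called 4 of the 31, all as lower, and 2.06% of all tested genes as lower.

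Ratios of counts within a library do not depend on library scaling. The ratio of Tubb3 to Gap43 counts was 3.47, 2.82 and 3.16 in knockouts and 4.64, 4.17 and 4.21 in controls. Stmn3 to Gap43 gave 0.302, 0.231 and 0.266 in knockouts and 0.454, 0.413 and 0.394 in controls. Control 2 joined the other controls in both ratios. Within the stathmins, Stmn3 to Stmn2 was 0.204, 0.199 and 0.195 in knockouts and 0.251, 0.261 and 0.236 in controls. Isl1 to Isl2 was 4.12, 4.91 and 3.65 in knockouts and 4.92, 5.17 and 5.42 in controls. Of 10 such pairs computed 6 had the groups apart. Most of the 6 had Stmn3, Tubb3 or Isl1 as numerator, genes whose own levels were already apart. Elavl2 to Elavl3 was among those that overlapped, at 0.866, 1.10 and 0.914 in knockouts and 0.892, 1.27 and 0.781 in controls. The pairs were chosen after the values were seen and no share over other gene pairs was computed. No test is given, and the ratios are description only. In the same way, the pan-neuronal median minus the median of the motor and interneuron genes was -0.31, -0.19 and -0.38 (log2) in knockouts 1, 2 and 3 and 0.09, -0.10 and -0.04 in controls 1, 2 and 3.

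Per kilobase of exon, with exonic lengths from GENCODE M21, Tubb3 was by far the most abundant of the 31, at 127 ± 12.4 CPM per kilobase in knockouts and 172 ± 23.98 in controls (SD, n = 3 each). Gap43 followed at 49.5 ± 3.31 CPM per kilobase in knockouts and 48.5 ± 4.81 in controls, with Nefm next at 37.3 ± 2.26 in knockouts and 43.2 ± 10.2 in controls. Gap43 and Nefm overlapped among controls but not among knockouts. Mnx1 was the lowest, at 0.567 ± 0.193 CPM per kilobase in knockouts and 0.662 ± 0.132 in controls. The 11 highest by the control mean were all pan-neuronal, and the lowest 5, Th, Onecut1, Phox2a, Lhx3 and Mnx1, were a transmitter enzyme and transcription factors. Of the 31 genes, 12 share exonic bases with another gene in GENCODE M21, and Onecut1, Nefl and Nefm share the largest parts.

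**Figure D4:**
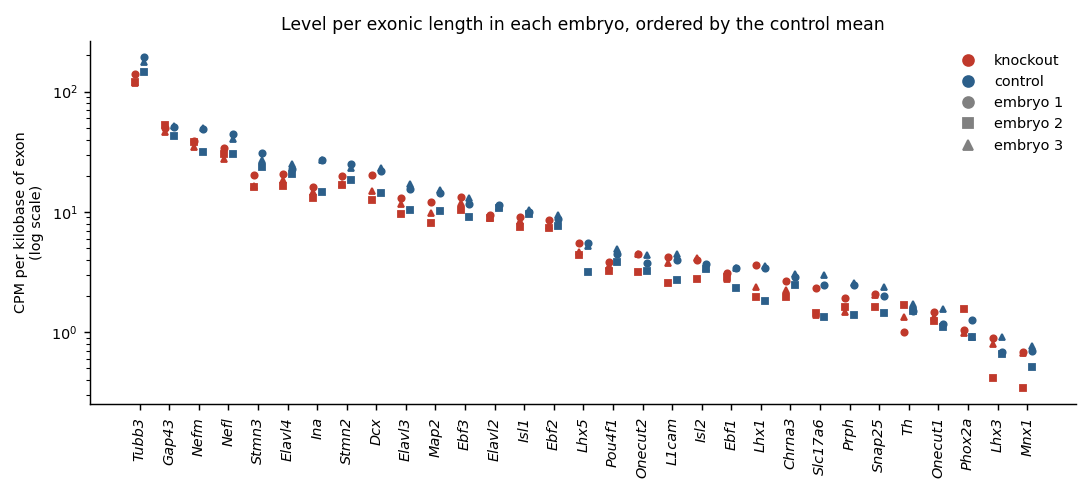
CPM per kilobase of exon (log axis) of each of the 31 genes in each embryo, knockouts in red left of controls in blue, ordered by the control mean. Tubb3 stands above the rest with means of 127 CPM per kilobase in knockouts and 172 in controls, and most other genes overlap between the groups.

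Further neuronal genes outside the 31 were read from lists drawn up by role. Of 40 other pan-neuronal genes, 34 had log2 fold changes below 0, against 50.3% of all tested genes, and the median was -0.21. Scg3, a granin of secretory granules, averaged 20.2 ± 2.31 CPM in knockouts and 29.1 ± 4.68 CPM in controls (SD, n = 3 each), or -0.53 ± 0.14 in log2 (SE; edgeR adjusted p = 0.101). Nsg2, a neuronal vesicle protein, averaged 34.9 ± 2.90 CPM in knockouts and 46.4 ± 7.35 CPM in controls, or -0.41 ± 0.12 in log2 (edgeR adjusted p = 0.135). None of the 40 was called by edgeR and none by limma-voom. At an unadjusted p under 0.05, 10 of the 40 were lower, against 8.53% of all tested genes, and DESeq2 called 1 as lower, against 2.14% of all.

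The other subtype lists had medians near 0. They were -0.08 over 8 motor genes, -0.03 over 21 tested interneuron genes, -0.04 over 14 sensory genes and -0.03 over 11 tested autonomic genes. Over all 94 tested genes of these lists and the pan-neuronal one, edgeR and limma-voom called none and DESeq2 called 3. At an unadjusted p under 0.05 in edgeR, 16 were lower and 6 higher. Of all 15075 tested genes, 1286 (8.53%) were lower and 1610 higher at that p. DESeq2 called 779 of the 15075 and limma-voom 195. Named by the smallest p in each list, the metalloprotease gene Mmp17 was at a log2 fold change of 0.65, Chodl at -0.45, Lhx2 at -0.38, Lmx1b at 0.38, Runx1 at -0.44, the vesicular monoamine transporter Slc18a2 at 0.63 and Ddc, which makes dopamine, at -0.35. Their edgeR adjusted p-values ran from 0.0777 for Mmp17 to 0.430 for Chodl.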

How the data were processed

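RNA from whole embryos was made into stranded libraries after selection of polyadenylated RNA, per the labels' protocols. The authors deposited whole-number counts per gene symbol for each of 6 embryos, without normalization. Trimmomatic, TopHat2, Bowtie2, HTSeq and the mm9 genome are listed in the submitters' processing notes, while versions, annotation and strand setting are not stated there. Deposited counts per repeat name were not used. Rows naming no gene (29.5% to 39.8% of alignments) stayed out of library sizes and tests.

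Groups came from the sample titles. All 6 libraries were fitted with edgeR 4.0.16 in R 4.3.3, with TMM scaling, filterByExpr (minimum count 10, minimum total 15), robust priors and the quasi-likelihood F test, with group as the only term. Adjusted p-values are Benjamini-Hochberg values over 15075 genes, and a call is one under 0.05. Standard errors divide the size of the log2 fold change by the root of F. The fit was tested on simulated counts. List medians per embryo use log2 of CPM plus 0.5. Libraries differed pairwise by 13.0 to 106 chi-square units per degree of freedom, so none was a duplicate.

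The 31 genes and all lists were chosen with earlier results of these data known, and no list was tested as a set. From each other neuronal list, called genes and otherwise the 2 with the smallest p were named, while marker lists are given by their summaries. A gene of the sensory list that this rule names is not reported here. Exonic lengths and overlaps are from GENCODE M21 and promoters from RefSeq, both of GRCm38 and matched by symbol, so they need not equal the mm9 models counted. Alternatives were other scalings, DESeq2 1.42.0, limma-voom (limma 3.58.1), no robust priors, other filters and thresholds, a block for the replicate number, each embryo left out, ribosomal RNA genes left out, the share of alignments outside genes as a covariate, and knockouts 2 and 3, whose deposited files share a code of unstated meaning, summed as 1 sample.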

Additional observations from a re-analysis of the deposited data

How the results depend on the processing

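The number of the 31 genes called, 1 in the fit described above, was 0 with upper-quartile scaling, library totals, limma-voom, a minimum count of 50, no robust priors or an adjusted p under 0.01, and 0 to 2 when single embryos were left out. It was 2 at an adjusted p under 0.10 and 4 with DESeq2, with the replicate block or with the share of alignments outside genes as a covariate. Under the block these were Elavl2, Map2, Stmn3 and Tubb3, and under the covariate Elavl2, Elavl4, Isl1 and Stmn3, where the motor median was -0.32. The same settings also called more of all 15075 tested genes as lower, against 144 in the fit described above. The totals were 256 at an adjusted p under 0.10, 323 with DESeq2, 256 with the block and 311 with the covariate. No alternative called any of the 31 as higher. The other medians moved by less than the spread between embryos, and the cause of the changes was not tested.

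Deviations from the group means correlated at -0.10, 0.23 and 0.31 between the knockout and control numbered 1, 2 and 3. Correlations between unlike-numbered embryos were not computed, so these values cannot settle whether the numbers pair embryos. The main fit took the embryos as unpaired. Over all genes, 83 were higher and 144 lower. The numbers were 456 and 323 with DESeq2, 333 and 256 with the replicate block, 437 and 311 with the covariate, 40 and 51 at a minimum count of 50, 11 and 66 at an adjusted p under 0.01, and 272 and 256 under 0.10. Higher genes were 144 with no filter and 270 with knockouts 2 and 3 summed. Without single embryos they were 7 (without control 2) to 1159 (without knockout 2) higher and 53 to 504 lower, the same embryos giving the ends.

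Members near 0 changed sign, none of them called. With the covariate the log2 fold changes were -0.11 for Ebf3, -0.24 for Isl2, -0.059 for Lhx5, -0.094 for Onecut1 and -0.24 for Onecut2, and with library totals Snap25 was at 0.029. Over fits that left out 1 embryo the ranges were -0.24 to 0.017 for Ebf1, -0.053 to 0.20 for Ebf3, -0.053 to 0.079 for Gap43, -0.057 to 0.21 for Isl2, -0.26 to 0.10 for L1cam, -0.42 to 0.042 for Lhx1, -0.30 to 0.17 for Lhx3, -0.15 to 0.21 for Lhx5, -0.37 to 0.035 for Mnx1, -0.021 to 0.26 for Onecut1, -0.032 to 0.22 for Onecut2, -0.038 to 0.37 for Phox2a and -0.20 to 0.15 for Snap25. Of the values of the 31 genes in all alternatives, 29 changed sign, 11 gained a call, 9 lost one, all for Stmn3, and 508 did neither. The lowest counts were 21 to 49 per library, for Mnx1.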
